A study of Rattus norvegicus with 2 samples.

Results

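The 10 genes of a set of endothelial transcription factors were described in single-cell transcriptomes of rat and rat-mouse chimera muscle. They are the SOXF genes Sox7, Sox17 and Sox18, the ETS genes Erg, Fli1 and Ets1, the basic helix-loop-helix gene Tal1, the zinc finger gene Mecom and the Krüppel-like genes Klf2 and Klf4. They were chosen by name, and all 10 were found, as 10 of 23373 gene rows in the rat library and as 20 of 49280 rows in the chimera library, which lists each gene once for rat and once for mouse. A first library came from whole-body skeletal muscle of 1 Sprague Dawley (SD) rat and a second from the same tissue of 1 rat-mouse chimera, a Sprague Dawley rat injected at the morula stage with mouse induced pluripotent stem cells (iPSCs). The iPSCs carried a Dmd mdx allele, in which dystrophin is disrupted and which had then been gene edited, and a Pax7-nGFP reporter, which marks muscle stem cells. Both samples were digested with collagenase, cleared of red blood cells with a lysis buffer and sorted as live cells before droplet capture. The labels give neither age nor sex. Each group is 1 animal and 1 library, so no difference between groups has a replicate check, and all intervals given are 95% intervals that cover counting error only.

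Endothelial cells (ECs) line blood and lymphatic vessels, and their identity is kept by a small set of transcription factors that bind together at the enhancers of endothelial genes. ETS factors recognise a GGAA core, SOXF factors an ACAAT-like motif, Tal1 binds E-boxes with GATA partners, and Klf2 and Klf4 are switched on by laminar blood flow and bind CACCC boxes. In muscle, most ECs form capillaries that run along the myofibres, fed by arterioles and drained by venules.

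After quality filters and removal of predicted doublets, the SD rat library held 8816 cells with a median of 6276 unique molecular identifiers (UMIs) and the chimera library 11730 cells with a median of 7848. Of the chimera cells, 8230 were called rat, with at most 20% of their UMIs on mouse rows, 1847 were called mouse, with at least 80%, and the remaining 1653 (14.1%) entered no comparison. Cells were clustered without the 10 genes and named from other markers, so that the levels of the 10 genes were not used to draw the groups. Vascular EC-like cells numbered 1574 in the SD rat, 720 among chimera rat cells and 1152 among chimera mouse cells, with median depths of 1859, 3452 and 5657 UMIs. Lymphatic EC (LyEC)-like cells numbered 110 in the SD rat and 82 among chimera rat cells, and no mouse cluster took that name. The levels below are CPM, the UMIs of a gene per 1000000 UMIs of a group of cells, on rows of the cells' own species. A 3′ count is not scaled by transcript length, so levels are compared between cells and not between genes. The 95% interval of a CPM value is the exact Poisson interval of the summed UMIs.

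A pair of rat promoters is shown, those of Erg and Mecom, from the 4 of 10 members matched to a RefSeq promoter window. The windows of the other matched members, Tal1 and Klf4, left too few bases outside the annotated gene. A window that starts deep inside the span of longer transcripts, as for Erg, was kept. Among the 4 matched members, Erg and Mecom also had the highest ratios of EC-like to other rat cells. Their windows differ in length, 172 bases for Mecom and 250 for Erg, so their motif counts are not like for like. Both are from assembly GRCr8, 5′ to 3′, with ETS cores (GGAA or, on the other strand, TTCC) in capitals. The Mecom window is chr2:114837643-114837814 on the plus strand, 172 bases that end before the annotated gene's start. The Erg window is chr11:48251567-48251816 on the minus strand, 250 bases before the start that the table lists, which lies inside the annotated span of the gene.
Mecom: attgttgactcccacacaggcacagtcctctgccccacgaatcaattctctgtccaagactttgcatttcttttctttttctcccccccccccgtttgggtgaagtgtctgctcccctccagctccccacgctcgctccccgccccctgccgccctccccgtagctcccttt
Erg: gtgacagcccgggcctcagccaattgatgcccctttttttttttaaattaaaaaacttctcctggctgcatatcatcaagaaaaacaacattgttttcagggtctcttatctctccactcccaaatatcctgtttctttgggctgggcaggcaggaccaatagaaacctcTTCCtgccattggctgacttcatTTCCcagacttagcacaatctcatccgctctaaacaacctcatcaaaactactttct
On both strands, the Erg window held 2 ETS cores, 2 SOX motifs (ACAAT), 3 GATA motifs, 1 E-box (CANNTG) and no CACCC box. The Mecom window held no ETS core, 1 SOX motif, 1 CACCC box and no GATA motif or E-box. In its first 172 bases the Erg window held no ETS core, 1 SOX motif, 3 GATA motifs and 1 E-box. Over all 33469 promoters of the same table, an ETS core was present in 93.2% of windows of 250 bases and in 85.2% of those of 172 bases. An ACAAT motif was present in 30.02% and 21.9%, a CACCC box in 49.2% and 36.9%, GATA in 55.9% and 46.0%, and an E-box in 65.5% and 52.8%. A match is a description of the window and not a binding site.

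The SOXF and ETS genes, Tal1 and Mecom were higher in EC-like cells than in the other named cells of every population. Klf2 and Klf4 were broadly detected, and of them only Klf2 was more than 2-fold higher, in the chimera populations alone. EC-like cells, vascular and lymphatic together, were set against all other named cells of the same population, and a gene was counted when its CPM, with 1 CPM added to each side, was more than 2-fold higher. In the SD rat this held for 8 of the 10 genes, against 14.7% of all 14481 genes with enough UMIs. It held for 9 of 10 among chimera rat cells, where 11.3% of all genes passed, and for 9 of 10 among chimera mouse cells, where 15% passed. The median log2 ratio of the 10 genes was 4.38 in the SD rat, 4.45 in chimera rat and 4.65 in chimera mouse cells, against 0.06, 0.00 and 0.01 over all genes.

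**Figure D1:**
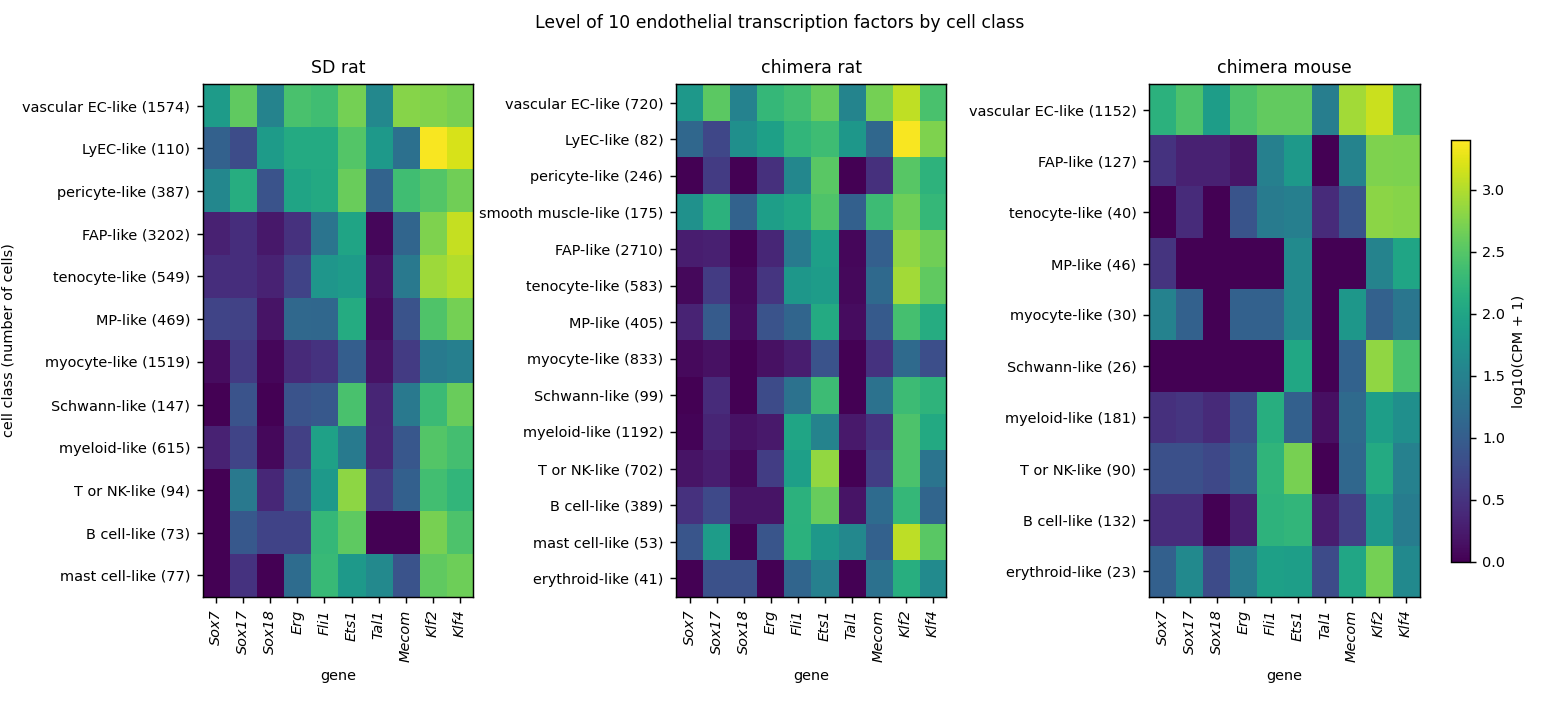
Heat maps of the level of the 10 genes (columns) in each named cell class (rows, with cell numbers) of SD rat, chimera rat and chimera mouse cells, as log10 of CPM plus 1. The SOXF genes, Erg, Tal1 and Mecom are bright in the vascular EC-like row and dark in most others, while Ets1 and Fli1 extend to lymphoid rows and Klf2 and Klf4 to most rows but myocyte-like cells.

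Sox17, a SOXF gene with a known role in arterial specification, was found at 373 CPM (interval 356 to 392) in SD rat vascular EC-like cells, 344 (326 to 363) in chimera rat and 280 (269 to 292) in chimera mouse cells. Levels in fibro-adipogenic progenitor (FAP)-like cells, the mesenchymal cells between myofibres, were 1.79, 0.986 and 1.07 CPM in the same order. The log2 ratio of EC-like to other cells was 5.43 (5.28 to 5.57), 5.50 (5.35 to 5.65) and 6.08 (5.63 to 6.54). Sox7 was found at 73.4, 63.7 and 153 CPM in vascular EC-like cells, and Sox18, mutated in a human syndrome of lymphoedema, at 32.3, 31.0 and 78.2. Their log2 ratios were 4.32, 4.33 and 5.35 for Sox7 and 4.46, 4.62 and 5.05 for Sox18. With every other class given equal weight instead, the ratios were 3.59, 3.17 and 4.45 for Sox7 and, in the chimera populations, 3.79 and 5.07 for Sox18. With 10 CPM added in place of 1 they were 2.60, 2.48 and 3.68 for Sox7 and 2.15, 2.07 and 2.95 for Sox18, still more than 2-fold higher.

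Because EC-like cells differed in depth, each cell was also thinned to 1000 UMIs and shallower cells were left out, which removed 448 of 1574 SD rat, 64 of 720 chimera rat and 77 of 1152 chimera mouse vascular EC-like cells. At equal depth a SOXF UMI was found in 33.0% (exact interval 30.2 to 35.8), 33.5% (29.9 to 37.3) and 35.3% (32.4 to 38.2) of them. The share in FAP-like cells was 0.281%, 0.111% and 0.806%, and in myocyte-like cells, which hold muscle fibre RNA, it was 0.422%, 0.121% and 3.70%, the last from 27 cells. The mean number of the 10 genes found in a thinned vascular EC-like cell was 2.18 (SD 1.35), 2.20 (SD 1.34) and 2.41 (SD 1.39), and in an SD rat FAP-like cell it was 0.903 (SD 0.774).

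Erg, an ETS factor that maintains endothelial junction genes, was found at 261 CPM in SD rat, 182 in chimera rat and 285 in chimera mouse vascular EC-like cells, and its log2 ratios to other cells were 5.10, 5.21 and 5.79. Fli1, its closest relative, which also acts in megakaryocytes and lymphocytes, was found at 223, 237 and 380 CPM, with smaller ratios of 2.69, 2.21 and 1.95. Its other high classes were blood cells. B cell-like cells had 185, 153 and 157 CPM of Fli1, and mast cell-like cells 195 (157 to 240) in the SD rat and 147 (106 to 198) in the chimera rat. The mast value of the SD rat overlapped the interval of its vascular EC-like cells, 210 to 237.

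Ets1, an ETS factor of both endothelium and lymphocytes, was highest in T or NK-like cells in all 3 populations, at 657 (598 to 719), 713 (691 to 735) and 500 (454 to 549) CPM. Vascular EC-like cells followed at 489, 401 and 386 CPM, although in the chimera rat the B cell-like level of 411 (383 to 441) was not separable from them. Pericyte-like cells of the rat had 419 and 342 CPM. The log2 ratio of EC-like to other cells was 2.19 in the SD rat and 1.36 in the chimera rat, and the 2 libraries also differed in T or NK-like cells, which were 1.07% of SD rat and 8.53% of chimera rat cells. With every other class given equal weight the Ets1 ratios were 1.14 and 0.91.

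Tal1, a factor of blood and endothelial precursors, was found at 37.5 (32.1 to 43.5), 32.9 (27.4 to 39.1) and 27.4 (23.9 to 31.2) CPM in vascular EC-like cells. Mast cell-like cells, a lineage in which Tal1 is known to act, had like levels of 38.6 (22.9 to 61.0) and 37.6 (18.7 to 67.2) CPM in the rat populations, from 18 and 11 UMIs. FAP-like, tenocyte-like and myocyte-like cells of the rat populations were at 0.457 CPM or below. LyEC-like cells were higher than vascular EC-like cells, at 67.5 (50.4 to 88.5) and 62.4 (45.3 to 83.7).

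Mecom, which encodes the zinc finger factor EVI1 and is best known from blood stem cells, was found at 610 (588 to 633), 481 (460 to 504) and 854 (834 to 874) CPM in vascular EC-like cells. The log2 ratio to other cells was 4.82, 4.95 and 5.50. The 2 rat classes with a high Mecom level outside the endothelium also held endothelial RNA. In SD rat pericyte-like cells Mecom was at 227 CPM and Sox17 at 129, and 14 endothelial marker genes summed to 3304 CPM, whereas in chimera rat pericyte-like cells Mecom was at 1.95, Sox17 at 2.92 and these markers at 563. In chimera rat smooth muscle-like cells Mecom was at 210 CPM, Sox17 at 151 and the endothelial markers at 3372. The part of these endothelial markers in the level of Mecom and Sox17 was not tested.

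Klf4 did not follow that pattern, and Klf2 was past 2-fold in the chimera populations only. Klf2 was at 563, 1201 and 1321 CPM in vascular EC-like cells and at 2296 and 2313 in LyEC-like cells of the rat populations, but FAP-like cells had 553, 682 and 550 CPM. Its log2 ratio of EC-like to other cells was 0.82 (0.77 to 0.87), 1.47 (1.43 to 1.51) and 2.41 (2.34 to 2.48). Klf4, which is also expressed in fibroblasts and monocytes, had ratios of −0.46 (−0.51 to −0.42), 0.16 (0.08 to 0.23) and 0.32 (0.22 to 0.41), and with every other class given equal weight the SD rat ratio turned to 0.45. In the SD rat FAP-like cells had 1254 CPM of Klf4 and vascular EC-like cells 507. In the SD rat both genes were lowest in myocyte-like cells, at 23.9 CPM for Klf2 and 28.1 for Klf4.

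Some levels outside ECs came from single cells. All 22 Sox17 UMIs of chimera rat mast cell-like cells lay in 1 cell, as did 13 of 16 in SD rat T or NK-like cells, 35 of 36 Mecom UMIs in chimera mouse myeloid-like cells and 90 of 96 Klf2 UMIs in chimera mouse erythroid-like cells.

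The genes most alike in pattern were found by Pearson's r of log2 CPM over 42 cell groups of the 3 populations and 10864 genes present in both species. The groups of a population share a library and reference, so r is a description. Erg was most like Emcn (r = 0.95), Sox17 like Flt1 (0.94), Sox7 like Mmrn2 (0.93), Tal1 like Adgrg3 (0.93), Sox18 like Dipk2b (0.92) and Mecom like Rapgef3 (0.91). Emcn encodes a sialomucin of capillaries and veins and Flt1 a receptor of vascular endothelial growth factor. Both genes are among the markers used to name the cells, so their matches are no evidence of their own. Fli1 was most like Sp100 (0.86), Ets1 like Elf1 (0.82), Klf2 like Pnp (0.84) and Klf4 like Jun (0.89), an immediate early gene. Among the 10 genes themselves, Sox7 and Erg had r of 0.89, Sox17 and Mecom 0.88, and Sox7 and Klf4 0.23.

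Other endothelial transcription factors gave a like count. Of 22 listed, 17 of 21 with enough UMIs were more than 2-fold higher in EC-like cells of the SD rat, 17 of 21 in the chimera rat and 15 of 18 in chimera mouse cells. The list median was 1.86, 1.47 and 2.44. Bcl6b, which encodes a transcriptional repressor, had log2 ratios of 4.39, 4.62 and 5.53, and Tcf15, a helix-loop-helix factor of muscle and heart capillaries, 4.23, 4.35 and 5.71. Among the lowest was Nfatc1, with 0.58, 0.51 and −0.32. Known endothelial targets of ETS, SOX and KLF factors were higher in 17 of 17, 17 of 17 and 18 of 18, but that list holds genes used to name the cells, such as Cdh5, so the count is no evidence of its own.

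EC-like cells were then split into subtypes by markers of arteries, capillaries, veins and lymphatics. Capillary EC-like cells numbered 897 in the SD rat, 547 in chimera rat and 744 in chimera mouse cells, arterial 62, 24 and 86, and venous 61, 70 and 98. Lymphatic cells numbered 106 in the SD rat and 77 in the chimera rat. Sub-clusters with at least 5 raised markers of another class, at least 1 of them among their top 10 genes, held 558, 52 and 156 cells and entered no subtype. Those of the SD rat had a median of 817.5 UMIs. In these 558 cells 13 myocyte markers summed to 57769 CPM, against 19469 in capillary cells. Mecom was found at 265 CPM and Sox17 at 187 there. Some capillary sub-clusters held RNA of other classes too. An SD rat one of 256 cells raised 10 of 13 myocyte markers, none of them among its top 10 genes, and another of 105 cells raised 10 as well. Haemoglobin genes were among the top genes of an SD rat sub-cluster of 290 cells, of chimera rat sub-clusters of 168, 136 and 88 cells and of mouse sub-clusters of 158, 155 and 151 cells. In capillary cells the erythroid markers summed to 2605 CPM in the SD rat, 13888 in the chimera rat and 3241 in mouse cells, against at most 322 in arterial cells, and their part in the subtype ratios was not tested. In a check added after the data were seen, capillary cells were kept only from sub-clusters whose leading marker list was the capillary one, which left 641, 136 and 149 cells. Its values are given below for some of the ratios it turned in sign or moved across 2-fold. The kept cells also differed in 10 immediate early genes, which stress and digestion switch on. These summed to 17554 CPM in the chimera rat sub-cluster kept, the highest of that population. In the mouse sub-clusters kept they summed to 12881 and 10966, the highest there. In those of the SD rat they summed to 5669, 19152 and 3441. The sub-clusters of 290, 136 and 105 cells named above stayed in. The part of these RNAs in the check was not tested. Arterial markers summed to 11646, 8094 and 10327 CPM in arterial and to 2909, 2628 and 1918 in capillary cells. Capillary markers summed to 15905, 19306 and 26309 CPM in capillary and to 7842, 2896 and 23686 in arterial cells. In mouse cells they also summed to 20282 in venous cells and 30991 in cells of no subtype. The capillary list thus separated the mouse subtypes little.

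**Figure D2:**
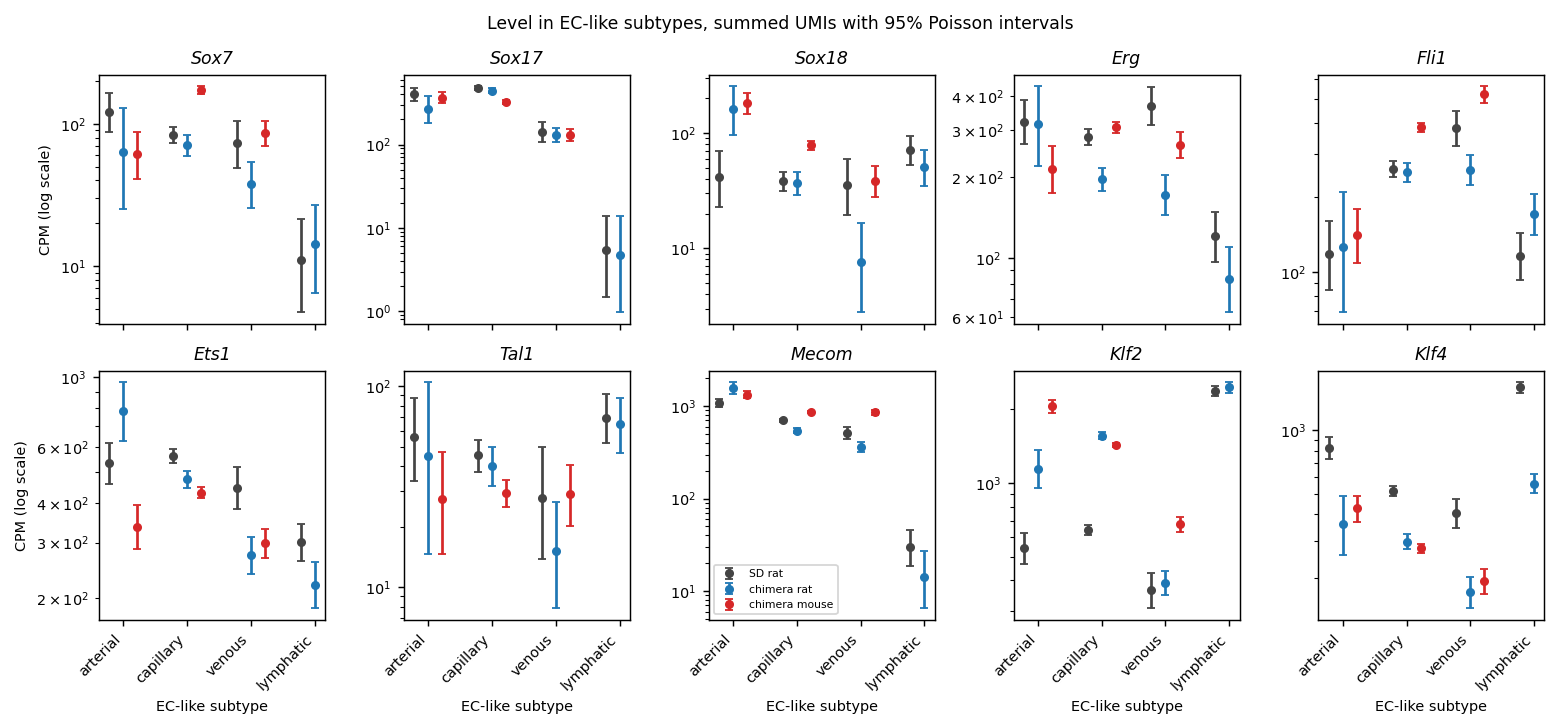
Level in CPM (log scale) of each gene in arterial, capillary, venous and lymphatic EC-like cells, one panel per gene, with points for SD rat, chimera rat and chimera mouse cells and bars for exact 95% Poisson intervals of the summed UMIs. Mecom is highest in arterial and lowest in lymphatic cells, Sox17 is lowest in lymphatic cells of the rat populations, and Fli1 is lower in arterial than in capillary cells in all 3 populations.

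Mecom was higher in arterial than in capillary cells of all 3 populations. It was at 1076 (968 to 1192) CPM in arterial and 703 (672 to 735) in capillary cells of the SD rat. The levels were 1574 and 543 in chimera rat and 1335 and 868 in chimera mouse cells. These gave log2 ratios of 0.61 (0.45 to 0.77), 1.53 (1.30 to 1.76) and 0.62 (0.50 to 0.74). Capillary cells of the SD rat were not uniform, since sub-clusters of 256 and 105 cells had 1237 and 1503 CPM, above the arterial level, and those of 290 and 246 cells had 453 and 706. At equal depth Mecom was found in 65.6%, 70.8% and 66.3% of arterial and in 44.6%, 37.1% and 49.2% of capillary cells, so the order held in each population. Fli1 went the other way, at 118, 126 and 141 CPM in arterial and 261, 253 and 384 in capillary cells, with log2 ratios of −1.14 (−1.63 to −0.68), −0.998 (−1.87 to −0.24) and −1.44 (−1.81 to −1.09). In cells thinned to 1000 UMIs the Fli1 ratios were −0.44, −0.45 and −1.22.

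Past 2-fold, 0 of 10 genes were higher in arterial than in capillary cells of the SD rat, where 5.34% of all genes passed. In chimera rat cells 2 of 10 passed, Sox18 and Mecom, against 13.6% of all genes, and in chimera mouse cells 1 of 10, Sox18, against 6.51%. More than 2-fold lower were 1 of 10 in the SD rat (Fli1), where 17% of all genes were, 0 of 10 in the chimera rat, where 25.1% were, and 2 of 10 in mouse cells (Fli1 and Sox7), where 13.3% were. The shares of higher genes lie near those of all genes. Against the capillary-led sub-clusters alone, Fli1 of the chimera rat was also past 2-fold, at −1.28. Tal1 of the chimera rat turned from 0.16 to −0.52 (−2.17 to 0.82) in that check. The chimera rat value of Sox18, 2.11 (1.29 to 2.85), came from 18 UMIs, of which 17 lay in 1 cell, and was −1.66 without that cell. The mouse value, 1.20 (0.85 to 1.54), rested on 86 UMIs with at most 7 in 1 cell, and Sox18 was at 181 CPM in arterial and 78.1 in capillary mouse cells. It depended on how cells were grouped: it was 0.96 with species called by majority, 0.84 with the members used for clustering, 0.74 with doublets kept, 0.61 with at least 1000 UMIs a cell, 0.48 at a resolution of 2 and 0.14 at 90% of UMIs on 1 species, all below 2-fold. In the SD rat Sox18 was at 41.4 and 38.0 CPM, with a ratio of 0.12 (−0.77 to 0.91), or −0.06 against those sub-clusters. Sox17 itself did not separate arterial from capillary cells past 2-fold, with ratios of −0.26 (−0.53 to 0.00), −0.70 (−1.28 to −0.18) and 0.17 (−0.06 to 0.40), the last −0.20 against those sub-clusters. Over 13 settings the mouse Sox17 ratio ran from −0.20 to 1.23, past 2-fold at its highest. Klf4 was higher in arterial cells of the SD rat by 0.68 (0.49 to 0.86) and of the chimera mouse by 0.62 (0.41 to 0.84), and in the chimera rat the interval of 0.27 reached −0.23. Against the capillary-led sub-clusters alone, the Klf4 ratio was 0.58 in the SD rat, −0.21 in the chimera rat and −0.01 in mouse cells.

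Venous cells had less Sox17. It was at 142 (107 to 184) CPM in SD rat, 131 (107 to 159) in chimera rat and 129 (109 to 152) in chimera mouse venous cells, against 478, 440 and 324 in capillary cells. The log2 ratios were −1.75 (−2.16 to −1.37), −1.74 (−2.04 to −1.44) and −1.32 (−1.57 to −1.08), more than 2-fold lower in each population. Past 2-fold, 1 of 10 genes was lower in the SD rat (Sox17), where 18.6% of all genes were, 4 of 10 in the chimera rat (Sox17, Sox18, Tal1 and Klf2), where 13.1% were, and 3 of 10 in mouse cells (Sox17, Sox18 and Klf2), where 15.1% were. Higher past 2-fold were 0 of 10 in each population, against 7.08%, 8.13% and 6.1% of all genes. Sox18 and Tal1 of chimera rat venous cells rested on 6 and 12 UMIs. Klf2 was also lower in venous cells, by ratios of −0.82, −2.00 and −1.07 (−2.30, −2.57 and −1.18 without the top cell of each side), and Ets1 by −0.33, −0.80 and −0.53. Of the immediate early genes, which stress and digestion switch on, 1 of 10 in the SD rat, 6 of 10 in the chimera rat and 7 of 14 in mouse cells were more than 2-fold lower in venous cells than in capillary cells. Their median ratios were −0.09, −1.09 and −0.94, against −0.19, −0.13 and −0.26 over all genes, and their part in the Klf2 ratio was not tested. Fli1 was not, with ratios of 0.55 (0.28 to 0.80), 0.03 (−0.21 to 0.27) and 0.44 (0.31 to 0.57). Against the capillary-led sub-cluster of the chimera rat alone, Fli1 had −0.25, Ets1 −1.07, Sox7 −1.16 and Klf4 −1.27. There Ets1, Sox7 and Klf4 were thus also more than 2-fold lower. In mouse cells Klf4 had −1.15 in that check, also past 2-fold. Mecom in mouse cells was at 863 CPM in veins and 868 in capillaries, within counting error. In the rat populations it was lower in veins, at 513 (445 to 589) against 703 CPM in the SD rat, a ratio of −0.45 (−0.67 to −0.24), and at 362 (321 to 406) against 543 in the chimera rat, −0.58 (−0.78 to −0.40). Against the capillary-led sub-clusters alone the Mecom ratios were −0.26, −0.99 and 0.28.

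Lymphatic cells, which the rat populations alone provided, differed most from capillary cells. Sox17 was found at 5.48 (1.49 to 14.0) CPM in the SD rat and 4.73 (0.975 to 13.8) in the chimera rat, from 4 and 3 UMIs, and the log2 ratios to capillary cells were −6.21 (−7.59 to −4.99) and −6.27 (−7.81 to −4.89). Mecom was at 30.1 and 14.2 CPM, with ratios of −4.50 and −5.16, and Sox7 at 10.9 and 14.2, with ratios of −2.82 and −2.24. Erg was lower by a ratio of −1.22 in both. The LyEC markers of these cells summed to 36590 and 52799 CPM, against 34.0 and 20.6 in capillary cells.

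In lymphatic cells 5 of 10 genes were more than 2-fold lower in the SD rat (Sox7, Sox17, Erg, Fli1 and Mecom), where 17.7% of all genes were, and 5 of 10 in the chimera rat (Sox7, Sox17, Erg, Ets1 and Mecom), where 16.1% were. In the SD rat 2 of 10 genes were more than 2-fold higher, Klf2 and Klf4, against 12% of all genes, and in the chimera rat 0 of 10, against 10.9%. Klf2 was at 2383 and 2461 CPM in lymphatic cells, a level that differed little between the animals, and its ratios to capillary cells were 1.88 (1.79 to 1.98) and 0.66 (0.57 to 0.75). Its capillary level was 645 in the SD rat and 1559.7 in the chimera rat.

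Sox18 and Tal1 had positive ratios in lymphatic cells too. Sox18, which switches on the lymphatic master gene Prox1 in the embryo, was at 71.2 (53.2 to 93.4) and 50.4 (34.5 to 71.2) CPM in lymphatic and 38.0 and 36.8 in capillary cells. The ratio was 0.89 (0.39 to 1.37) in the SD rat and 0.44 (−0.18 to 1.04) in the chimera rat, where the interval held 0 and the ratio to the capillary-led sub-cluster alone was −0.55 (−1.26 to 0.15). Tal1 ratios were 0.62 (0.13 to 1.09) and 0.67 (0.11 to 1.22), the latter −0.01 in that check. Of the other endothelial factors, Foxc2, a factor of lymphatic valves, had ratios of 4.55 and 4.39, and Nr2f2, which sets venous and lymphatic identity, 4.47 and 4.17. Tcf15 was at 0 UMIs in SD rat and 6.31 CPM in chimera rat lymphatic cells, against 221 and 285 in capillary cells, and Epas1, a hypoxia factor, had ratios of −2.83 and −2.96. Of 19 and 17 listed factors with enough UMIs, 5 and 5 were higher and 6 and 7 lower.

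Capillary cells were not uniform in Klf2 and Klf4. They fell into 4 sub-clusters in the SD rat, 4 in the chimera rat and 6 among mouse cells, and 10 immediate early genes such as Fos, Jun and Egr1, which are switched on within minutes by stress including tissue digestion, were summed in each. In the SD rat the sub-cluster with 19152 CPM of these genes had 1565 CPM of Klf2 and 972 of Klf4. The other 3 had 3441 to 5669 CPM of immediate early genes, 224 to 348 of Klf2 and 165 to 340 of Klf4. In the chimera rat the sub-cluster with the lowest sum, 5346 CPM, had 494 of Klf2, and the other 3, with sums of 10026 to 17554, had 1831 to 2107. In mouse cells the sums ran from 2858 to 12881 CPM and Klf2 from 753 to 2868, the highest in the sub-cluster with the highest sum.

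Sox17 also had its highest level in the sub-cluster with the highest sum in both rat populations, 609 CPM in the SD rat and 507 in the chimera rat, and in mouse cells it ranged from 87.4 to 477 CPM. Mecom did not follow the sum, ranging from 453 to 1503 CPM in the SD rat with the highest level where the sum was lowest, from 175 to 909 in the chimera rat and from 388 to 1216 in mouse cells. Median depth of the SD rat sub-clusters ranged from 1261 to 3612 UMIs. The part of the immediate early response in the levels of Klf2, Klf4 and Sox17 was not tested.

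**Figure D3:**
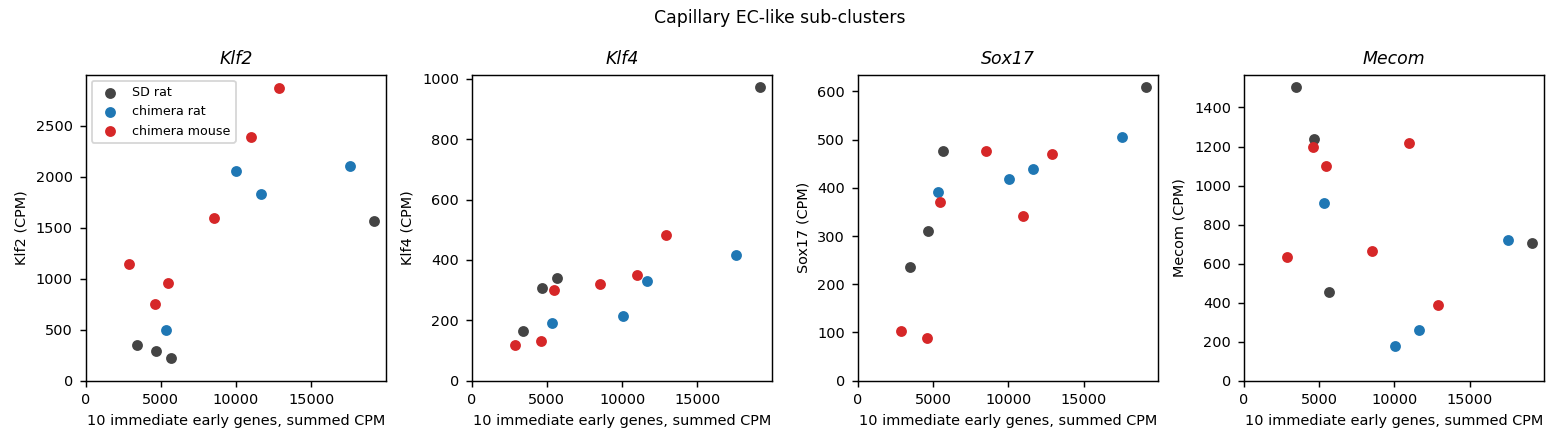
Level of Klf2, Klf4, Sox17 and Mecom (CPM) against the summed level of 10 immediate early genes (CPM) in each capillary EC-like sub-cluster, with one point per sub-cluster and colours for SD rat, chimera rat and chimera mouse cells. Klf4 and Klf2 points lie higher where the sum is high, as in the SD rat sub-cluster at 19152 CPM, and Mecom points are scattered.

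Rat ECs of the chimera were compared with those of the SD rat, to ask how host vessels of the chimera resembled those of a rat. Cycling sub-clusters were left out, which left 689 and 1572 vascular EC-like cells. Klf2, 1 of 10 genes, was more than 2-fold higher in the chimera, where 3% of 10772 genes were, and 0 of 10 were more than 2-fold lower, where 3.96% were. The median log2 ratio was −0.24 for the 10 genes and −0.01 for all genes. The SOXF genes had ratios of −0.28 (−0.54 to −0.03) for Sox7, −0.12 (−0.23 to −0.01) for Sox17 and −0.06 (−0.43 to 0.29) for Sox18. Fli1 had 0.10 (−0.04 to 0.23) and Tal1 −0.21 (−0.56 to 0.14), both with intervals that held 0, and Ets1 had −0.27 and Mecom −0.29. Between the capillary-led sub-clusters alone, Sox7 had −0.06, Sox17 0.0035, Sox18 0.77, Erg −0.47, Fli1 0.35 and Ets1 0.04. In that check Tal1 had 0.44, Mecom 0.22, Klf2 1.58 and Klf4 −0.40. The chimera rat sub-cluster of that check had 17554 CPM of immediate early genes and 2107 of Klf2. The SD rat sub-cluster with 19152 CPM of immediate early genes had 1565 of Klf2. Those with 5669 and 3441 had 224 and 348. The part of the immediate early genes in the Klf2 value was not tested. The counts depended on the cells used: with doublets kept 1 gene was lower, Klf4 at −1.15, and with at least 90% of UMIs on 1 species, where cells were clustered again and 73 vascular chimera rat cells were named, 0 were higher and 6 lower, Sox17, Sox18, Erg, Tal1, Klf4 and Mecom, at −1.08 to −1.48.

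The libraries also differed in other ways. SD rat vascular EC-like cells were shallower, their 13 myocyte markers summed to 27922 CPM against 11526 in the chimera rat, and 8 erythroid markers to 18509 against 8561. The erythroid order was the other way in capillary cells, 2605 and 13888 CPM, and the SD rat sub-clusters that entered no subtype held 66156. The myocyte markers kept their order there, 19469 and 7756. Without the sub-clusters that entered no subtype for their markers of other classes, a check added after the data were seen, again 1 gene was higher and 0 were lower, and the Klf2 ratio was 1.04. The SD rat capillary sub-clusters with raised myocyte markers stayed in that check. The part of these other RNAs in the ratios was not tested.

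Klf2 was at 562 CPM (541 to 584) in SD rat and 1177 (1141 to 1214) in chimera rat vascular cells, a ratio of 1.07 (0.99 to 1.14). With rat and mouse rows of the gene summed it was 0.96 (0.89 to 1.04), just inside 2-fold. The ratio was 1.27 in capillary and 1.08 in arterial cells, 0.10 (−0.19 to 0.39) in venous and 0.05 (−0.05 to 0.15) in lymphatic cells. The venous value depended on 1 cell per side and was 1.02 without them. The arterial value also leaned on 1 cell, since 62 of 127 chimera rat UMIs lay in 1 of 24 arterial cells. In the SD rat 26 of 183 lay in 1 of 62. In the 73 vascular cells named when chimera rat cells were required to hold at most 10% of their UMIs on mouse rows, the Klf2 ratio was 0.25. The 10 immediate early genes, none past 2-fold, had a median ratio of 0.21 in the same comparison.

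Klf4 depended on which rows were counted. On rat rows it was lower in the chimera, 273 CPM against 503, a ratio of −0.88 (−0.99 to −0.77). In chimera rat vascular cells 50.0% (47.7 to 52.3) of all Klf4 UMIs lay on the mouse row, and in other chimera rat cells 52.8%, whereas in chimera mouse vascular cells 2.68% lay on the rat row. With both rows summed the ratio was 0.00 (−0.08 to 0.09). The SD rat library was mapped to rat genes alone, and there all Klf4 UMIs are on the rat row. The share on the mouse row was 16.0% for Erg, 12.9% for Mecom, 8.70% for Sox18, 7.95% for Fli1, 5.17% for Tal1, 4.21% for Sox7, 2.54% for Ets1, 1.10% for Sox17 and 0.990% for Klf2. Over all genes the median mouse share of these vascular cells was 14.5%. In other named chimera rat cells the mouse row held 60.9% of Sox18, 40.9% of Erg, 32.8% of Tal1 and 31.4% of Sox7 UMIs. There it held 27.7% of Mecom, 22.0% of Sox17, 6.36% of Fli1, 3.37% of Ets1 and 1.12% of Klf2 UMIs. The Erg ratio was −0.50 (−0.65 to −0.36) on rat rows and −0.37 (−0.50 to −0.24) with rows summed.

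Klf4 was lower on rat rows in other classes as well, with a ratio of −1.39 in FAP-like cells, −1.06 in myeloid-like and −1.46 in tenocyte-like cells. With rows summed these were −0.40, −0.14 and −0.46. In T or NK-like cells the ratio stayed past 2-fold with rows summed, −2.11 (−2.43 to −1.79). In B cell-like cells it was −4.42 (−5.10 to −3.75) on rat rows, from 23 chimera rat and 72 SD rat UMIs, and −3.24 (−3.75 to −2.73) with rows summed.

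**Figure D4:**
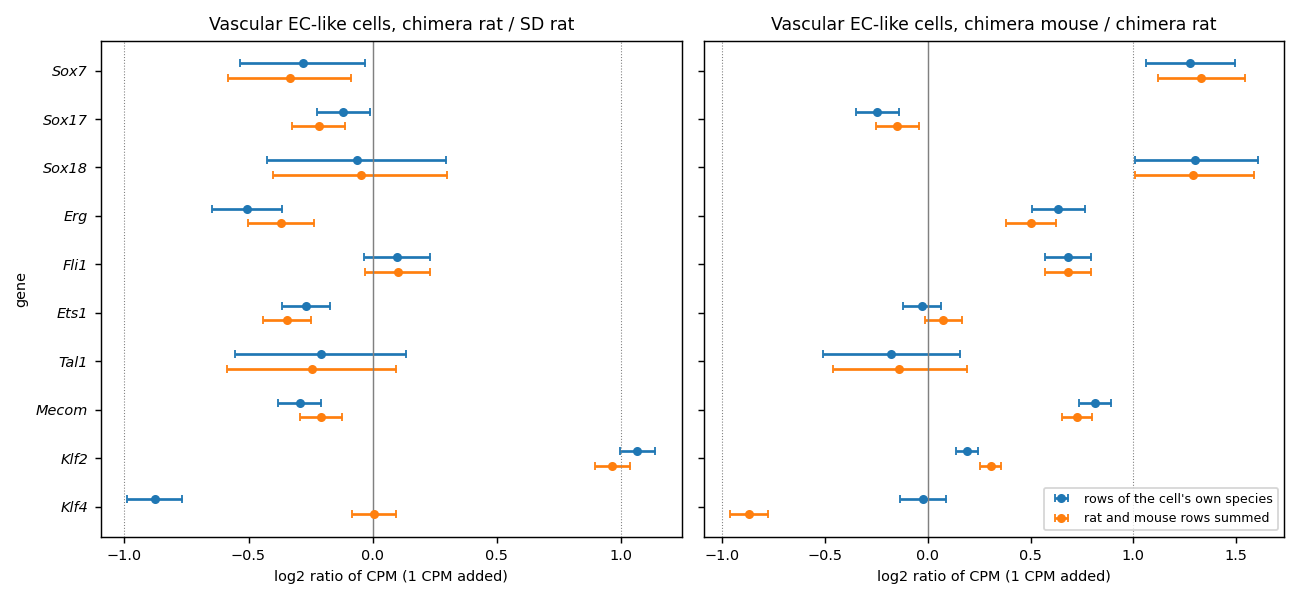
Log2 ratio of CPM (1 CPM added) of the 10 genes in vascular EC-like cells, chimera rat over SD rat on the left and chimera mouse over chimera rat on the right, with bars for 95% counting intervals and dotted lines at 2-fold. Blue points use rows of the cell's own species and orange points the rat and mouse rows summed, and the orange Klf4 point is at 0.00 on the left and −0.87 on the right.

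Of the lists beside it, 0 of 19 other endothelial factors were higher and 1 was lower in the chimera rat, Lyl1, with a ratio of −1.19 (−2.02 to −0.34) from 10 and 37 UMIs. Of 17 known targets 0 were higher and 1 was lower, Dll4, a Notch ligand of arterial and tip cells, with −1.32 (−1.55 to −1.08).

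Mouse ECs of the chimera were compared with rat ECs of the same library, which shared digestion, sort and sequencing but differ in species, so that a ratio joins the level of the gene with how each species' transcript is annotated and counted. Past 2-fold, 2 of 10 genes were higher in mouse cells, where 17.9% of 10474 genes were, and 0 of 10 were lower, where 17.2% were. The 2 were Sox18, with a ratio of 1.30 (1.01 to 1.61), and Sox7, with 1.28 (1.06 to 1.49). In vascular cells without cycling, Sox18 was at 77.7 CPM in mouse and 30.9 in rat, and Sox7 at 147 and 60.3. In cells thinned to 1000 UMIs the ratios were 1.60 for Sox18 and 0.71 for Sox7, and as a mean over cells 1.33 and 0.93, so Sox7 was below 2-fold in both. Both ratios were smaller between the capillary-led sub-clusters of the populations, 0.07 for Sox18 and 0.83 for Sox7.

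Mecom had 0.81 (0.73 to 0.89), Fli1 0.68 (0.57 to 0.80) and Erg 0.64 (0.51 to 0.77), all below 2-fold. Sox17 had −0.25 (−0.35 to −0.14), so the SOXF genes did not share a direction. Ets1 had −0.03 (−0.12 to 0.07) and Tal1 −0.18 (−0.51 to 0.16), and Klf2 0.19. Between the capillary-led sub-clusters alone, Mecom had −0.02, Fli1 0.06, Erg 0.48, Sox17 −0.27, Ets1 −0.80, Tal1 −0.88 and Klf2 0.35. Klf4 had −0.02 on own rows and −0.87 (−0.96 to −0.78) with rows summed. At equal depth a Sox7 UMI was found in 11.4% of mouse and 7.16% of chimera rat vascular EC-like cells, and a Sox17 UMI in 21.9% and 28.0%, the same orders as the CPM.

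Among venous cells Sox7 had 1.17 (0.58 to 1.79), Mecom 1.25 (1.06 to 1.45) and Fli1 1.01 (0.78 to 1.25). Among arterial cells, 24 of the chimera rat and 86 of the mouse, they had −0.04 (−1.25 to 1.36), −0.24 (−0.48 to 0.01) and 0.16 (−0.68 to 1.10). Of 10 immediate early genes in vascular cells 3 were more than 2-fold lower in the mouse, Btg2 at −1.77, Fosb at −1.53 and Ier2 at −1.34, with a list median of −0.61, while Zfp36 had 0.36 (0.28 to 0.44) and Ier3 0.35 (0.27 to 0.43). Of 17 known targets 4 were higher, among them Edn1, the gene of endothelin, at 2.05 and Egfl7 at 1.34, and 1 was lower, Thbd, which encodes thrombomodulin and is a target of Klf2, at −1.15. Of 19 other factors 1 was higher, Foxc1 at 3.00, and 2 lower, Foxf1 at −1.11 and Hhex at −1.10. The myocyte markers summed to 798 CPM in mouse and 11526 in chimera rat vascular cells, each on rows of the cells' own species, and their part in the ratios was not tested.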

How the data were processed

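The deposited matrices hold unnormalized UMI counts of 10x 3′ libraries, 1 row per gene and 1 column per barcode. The submitters' processing notes name Cell Ranger 7.1.0 and builds mRatBN7.2 and GRCm39. The chimera was counted on 23373 rat and 25906 mouse genes and the SD rat on the rat genes alone. The matrices held 13299 chimera barcodes with 118872850 UMIs and 10117 SD rat barcodes with 70957559 UMIs, and 43 barcodes occurred in both.

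Barcodes with at least 500 UMIs, at least 200 genes and at most 20% mitochondrial UMIs were kept, 12174 and 8980. Scrublet, in scanpy 1.11.5 at an expected 8%, marked 444 (3.65%) and 164 (1.83%) as doublets, which were left out. Each population was clustered on its own species' rows (Python 3.11.15, leidenalg 0.10.2, 2000 variable genes without the 10 members, 30 components, 15 neighbours, resolution 1). EC-like cells were clustered again in the same way. Clusters were called "X-like" from marker lists when at least 3 markers were raised 2-fold in 10% or more of cells. Arterial, venous and lymphatic sub-clusters needed 50% of their list raised, with at least 1 marker among their top 10 genes. Capillary was a remainder class. It took remaining sub-clusters with at least 3 capillary markers 2-fold above the pooled arterial, venous and lymphatic cells. The naming rule was set after the clusters were seen, and the names are not those of the study.

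UMIs were summed per group. Intervals (95%) are exact Poisson for CPM, exact Clopper-Pearson for shares and, for log2 ratios with 1 CPM added, from the exact binomial split of both sums (scipy 1.17.1). Genes with at least 20 UMIs over both sides were compared, and the call was a 2-fold difference. With 1 library per group there was no test. All 10 members were named, with the gene most alike by Pearson's r and some of the up to 3 highest and lowest genes of each other list. Where no count was found, the limit of 3 counts applies. The members and lists were chosen with earlier results of these data known. The scripts were tested on simulated data.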

Additional observations from a re-analysis of the deposited data

Results flagged for a closer look

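Several members went opposite ways in 2 groups, with counting intervals on opposite sides of 0. These differences were not tested, since each group is 1 library. Between arterial and capillary cells, Sox7 had a log2 ratio of 0.54 in the SD rat and −1.49 in chimera mouse cells, Erg 0.68 in chimera rat and −0.51 in chimera mouse cells, and Ets1 0.72 in chimera rat and −0.35 in chimera mouse cells. Klf2 was higher in arterial cells of the chimera mouse, at 0.53, and lower in those of the SD rat, at −0.25, and of the chimera rat, at −0.45. In arterial chimera rat cells 62 of 127 Klf2 UMIs lay in 1 cell, and the ratio was −1.26 without the top cell of each side. Against capillary sub-clusters led by the capillary list alone, the Klf2 ratio of mouse cells was −0.38, the Erg ratio −0.33 and the Ets1 ratio 0.03. In that check Sox7 had −1.32 in mouse cells and 0.43 (−0.08 to 0.92) in the SD rat, where the interval held 0. The reported SD rat value of Sox7, with an interval of 0.03 to 1.02, came from 41 UMIs, 10 of them in 1 cell. Arterial Erg and Ets1 of the chimera rat came from 35 and 87 UMIs in 24 cells. With rat and mouse rows summed that Erg ratio was 0.48 (−0.05 to 0.97), where the interval held 0. Between venous and capillary cells, Erg had 0.39 in the SD rat and −0.22 in chimera mouse cells. Between the chimera rat and the SD rat, Klf2 had 1.07 in vascular EC-like cells and 1.64 in mast cell-like cells but −1.45 in B cell-like cells. In mast cell-like cells 93 of 339 chimera rat UMIs of Klf2 lay in 1 cell, and the ratio without the top cell of each side was 1.53. In B cell-like cells 45 of 130 SD rat UMIs lay in 1 cell, and the ratio was −0.97 without the top cells.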

How the results depend on the processing

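Over 15 alternatives 930 values were recomputed, and 646 stayed within the counting interval of the reported value or, for a count, within 1.5 times it. Requiring 90% of UMIs on 1 species and clustering again gave 73 vascular chimera rat cells and no arterial ones. It gave 0 members higher and 6 lower in chimera rat than SD rat cells, 5 higher in mouse than chimera rat cells and 2 higher in arterial mouse cells, and it turned the arterial Sox7 ratio of mouse cells to 0.0454. Calling species by majority gave 0 in arterial mouse cells, as did keeping doublets, a resolution of 2 and clustering with the members. Keeping doublets also gave 1 member lower in the chimera rat. Summing rat and mouse rows gave 0 higher in the chimera rat. Thinning to 1000 UMIs and averaging over cells each gave 1 higher in mouse than chimera rat cells and 1 higher in arterial SD rat cells. Without the top cell 1 member was higher in arterial chimera rat cells, and Sox18 there turned to −1.66. The cause of these differences was not tested. A minimum of 1000 UMIs left no arterial chimera rat cluster. No paired analysis was possible because each group is 1 library. With 24 to 86 arterial cells, members with few UMIs, such as Tal1, could not be resolved at this depth.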
